A study of Caenorhabditis elegans with 2 samples.

Results

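The genes described here carry the names of cytosolic ribosomal proteins of Caenorhabditis elegans. They were taken by name alone, as every protein-coding gene of the WBcel235 annotation called rpl- or rps- plus a digit, which includes rpl-24.2, a relative of a ribosome assembly factor. This gave 78 of 19973 protein-coding genes, of which 47 are named for the large subunit (rpl) and 31 for the small subunit (rps). Subunits follow the names throughout, so rpl-24.2 is counted with the large subunit genes. The data are ChIP-seq peak lists for CEBP-1, a transcription factor, in whole young adult worms of 62 hours. All worms were of strain RW12290, whose own cebp-1 gene on the X chromosome carries allele st12290, a TY1::EGFP::3xFLAG tag inserted by CRISPR. They had been synchronised by starving L1 larvae after bleaching, and chromatin was sonicated to 200 to 800 bp. There was 1 group of 2 biological replicates, with no untagged, untreated or input sample used here, so no background from a control sample stands beside any value. Per the deposited notes, the authors had called the peaks against a control alignment. The precipitating antibody was against GFP according to the description, while the antibody field reads cebp-1, and the description was followed. Whole animals mix all tissues, and a peak present in few cells cannot be told apart from weak occupancy in many.

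Ribosomal proteins assemble with ribosomal RNA into a small subunit, which decodes the mRNA, and a large subunit, which joins amino acids into the chain. The genes are highly transcribed in growing and egg-producing worms, and in worms, unlike plants and yeast, most of them exist as a single copy. CEBP-1 belongs to the C/EBP family of basic leucine zipper proteins, which bind DNA as dimers and are known in worms for roles in axon regeneration and stress responses.

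A gene was called bound when a peak summit lay between 1000 bp upstream and 200 bp downstream of one of its annotated 5′ ends. The calls used the conservative series list, which keeps peaks whose order repeats between the replicates at an irreproducible discovery rate (IDR) below the authors' limit. The authors give each peak a signal value, and how it was scaled is not stated. It is used here to order peaks within a list, and values of different lists are not on 1 scale.

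The sequences printed here were chosen because they show the sequence under the strongest ribosomal protein peaks and under peaks that share a word with each other, with rps-24 as an example of a peak that has none of the marked words. Each is 141 bases centred on the summit, read 5′ to 3′ on the strand of the gene, with coordinates of ce11, which is the same build as WBcel235. Capitals mark TTGCGAAA, a C/EBP-like word present at many CEBP-1 peaks of this experiment, and 5 words that recur among the ribosomal protein peaks (GGCCTAAA, TGGCCTAA, TACGGTAA, ATTTTAGG and CGCTCCAC, on either strand). Overlapping words run together in capitals.
rpl-3, III:3867504-3867644, plus strand: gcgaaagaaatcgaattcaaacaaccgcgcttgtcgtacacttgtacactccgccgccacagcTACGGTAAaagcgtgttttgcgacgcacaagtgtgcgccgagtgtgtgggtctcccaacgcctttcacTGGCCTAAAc
rpl-15, IV:654848-654988, minus strand: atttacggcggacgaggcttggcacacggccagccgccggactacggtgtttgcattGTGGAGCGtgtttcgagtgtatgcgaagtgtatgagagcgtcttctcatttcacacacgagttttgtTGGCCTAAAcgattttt
rpl-20, IV:4749996-4750136, minus strand: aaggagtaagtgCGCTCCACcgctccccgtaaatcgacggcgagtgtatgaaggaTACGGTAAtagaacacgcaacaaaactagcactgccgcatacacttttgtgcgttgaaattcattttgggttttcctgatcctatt
rpl-7A, IV:4390600-4390740, minus strand: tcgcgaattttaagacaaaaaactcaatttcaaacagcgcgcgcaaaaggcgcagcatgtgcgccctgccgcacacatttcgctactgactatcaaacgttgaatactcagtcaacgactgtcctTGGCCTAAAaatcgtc
rps-28, IV:1659195-1659335, plus strand: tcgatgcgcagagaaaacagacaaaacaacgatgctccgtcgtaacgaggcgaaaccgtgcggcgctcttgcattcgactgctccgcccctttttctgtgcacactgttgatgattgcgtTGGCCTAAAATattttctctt
rpl-43, II:14154491-14154631, plus strand: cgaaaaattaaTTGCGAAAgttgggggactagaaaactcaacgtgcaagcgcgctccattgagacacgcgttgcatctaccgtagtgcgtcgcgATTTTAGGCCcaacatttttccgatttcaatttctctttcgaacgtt
rpl-35, III:7854611-7854751, plus strand: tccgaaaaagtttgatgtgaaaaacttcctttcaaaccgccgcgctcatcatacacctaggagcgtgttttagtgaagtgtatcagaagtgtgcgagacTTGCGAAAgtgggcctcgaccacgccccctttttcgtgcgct
rps-1, III:4475600-4475740, plus strand: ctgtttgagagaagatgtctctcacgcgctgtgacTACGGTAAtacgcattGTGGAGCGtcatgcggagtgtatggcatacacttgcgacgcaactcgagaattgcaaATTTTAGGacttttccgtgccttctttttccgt
rps-24, IV:385489-385629, plus strand: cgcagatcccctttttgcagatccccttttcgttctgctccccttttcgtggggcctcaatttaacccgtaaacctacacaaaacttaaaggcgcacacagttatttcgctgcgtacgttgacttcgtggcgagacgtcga

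CEBP-1 peaks lay in the promoters of 22 of the 78 ribosomal protein genes (28.2%, 95% Wilson interval 19.4 to 39.0%), against 5.06% of all protein-coding genes. Genes of both subunits were among them. There were 13 of 47 large subunit genes (27.7%, 16.9 to 41.8%) and 9 of 31 small subunit genes (29.0%, 16.1 to 46.6%), and these intervals overlap almost wholly. The intervals cover counting error only and treat genes as independent. They do not cover that the family was chosen with earlier results of these data known. The optimal series list, which is longer (1969 peaks, against 1546 in the conservative list), gave 31 members (39.7%, 29.6 to 50.8%), against 6.31% of all genes.

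Each replicate's own list showed a higher share among ribosomal protein genes than among all genes. Replicate 1 had 29 members bound (37.2%, 27.3 to 48.3%), against 5.37% of all genes. Replicate 2, with 797 peaks compared with 1488 in replicate 1, had 18 members (23.1%, 15.1 to 33.6%), against 2.91% of all genes. Both replicate lists held 17 of the members (21.8%, 14.1 to 32.2%), against 2.58% of all genes. All 18 members of the replicate 2 list were among the 22, and so were 20 of the 29 of replicate 1. Among all 50793 ranked series peaks, most of which are below the threshold, 65 members had a promoter summit (83.3%, 73.5 to 90.0%), against 50.6% of all genes. Ranked peaks of any strength were thus more frequent at these genes too, and the calls used in the following rest on the thresholded lists.

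**Figure D1:**
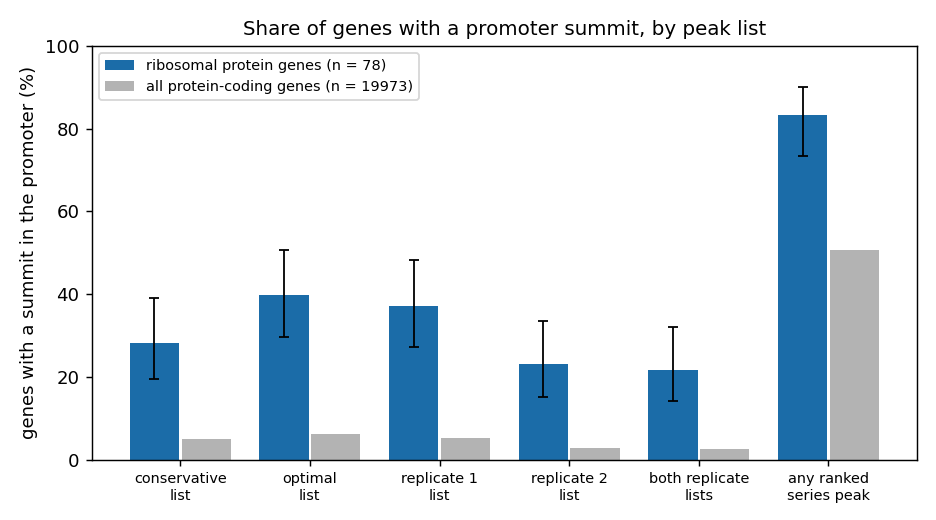
Share of genes with a promoter summit (y axis, %) in each peak list (x axis), for the 78 ribosomal protein genes (blue, with 95% Wilson intervals) and all 19973 protein-coding genes (grey). The blue bar is above the grey one in every list, with 28.2% against 5.06% in the conservative list and 83.3% against 50.6% among all ranked peaks.

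The 22 bound genes carried 23 peaks, since rpl-15 has a pair of peaks. The strongest was at rpl-3, whose product uL3 reaches towards the peptidyl transferase centre. Its signal was 612 in the series list, rank 40 of 1546, and 332 in replicate 1 and 283 in replicate 2, where it ranked 44 and 34. Next came rpl-35, for a protein at the exit of the peptide tunnel, with a series signal of 508 and replicate signals of 329 and 186. The stronger rpl-15 peak had a series signal of 490, with 291 in replicate 1 and 222 in replicate 2. In both replicates these 3 genes were the highest of the family. They were followed at some distance by rpl-20, with a series signal of 327 and replicate signals of 167 and 156, and by rpl-24.2, with 271 in the series and 132 and 144 in the replicates.

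A middle group of small and large subunit genes had series signals between 149 and 253. For the small subunit it comprised rps-19 (253), rps-24 (227), rps-23 (197), rps-12 (196), rps-1 (193), rps-26 (166) and rps-20 (81.4 and 73.0 in replicates 1 and 2). The product of rps-23, uS12, lies at the decoding centre, and that of rps-26 lines the channel through which mRNA leaves. For the large subunit it held rpl-12 (221), whose protein forms the base of the factor-binding stalk, rpl-7A (218), rpl-43 (177) and rpl-7 (149). Over these 11 peaks the replicate 1 signal lay between 81.4 and 152, and the replicate 2 signal between 39.6 and 109. Every small subunit peak of the group was in both replicate lists.

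The weakest calls were rpl-41.2 (134), the second peak of rpl-15 (111), rps-28 (109), rpl-14 (107), rpl-11.2 (103), rpl-29 (95.3) and rps-15 (93.5). Calls that the replicate lists did not share fell mainly here. The genes rps-28 and rpl-11.2, and with them rpl-7 of the middle group, were called in replicate 1 and not in replicate 2. At rpl-7 the peak had a signal of 106 and rank 407 in replicate 1, and a signal of 39.6 and rank 1751 in replicate 2. In the other direction rps-15 was called in replicate 2 alone, with signals of 50.6 and 49.5 in replicates 1 and 2. The peak at rpl-29 was in neither replicate list and had signals of 46.4 and 45.4.

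**Figure D2:**
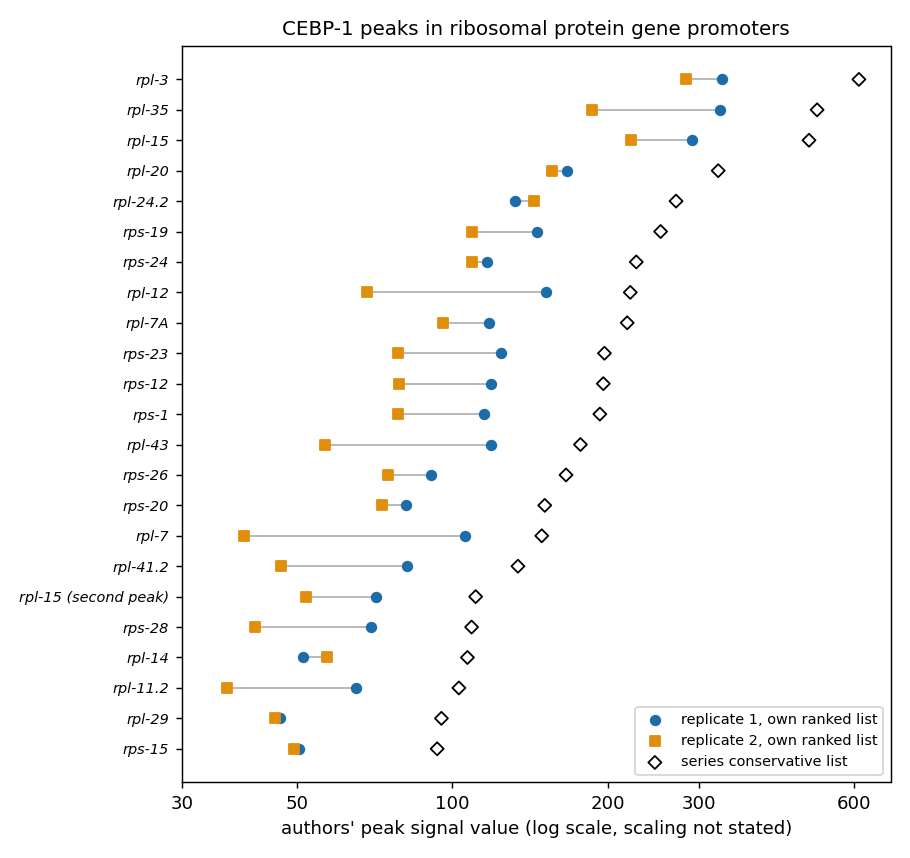
Authors' signal value (x axis, log scale, scaling not stated) of the 23 ribosomal protein peaks (y axis, by gene, strongest at the top) in replicate 1 (circles), replicate 2 (squares) and the conservative series list (diamonds). The top 3 genes stand above the rest in both replicates, and values of different lists are not on a common scale.

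Ribosomal protein peaks were stronger than the typical peak of the experiment. Their median series signal was 193 (93.5 to 612, n = 23), against 121 for the 856 other promoter peaks and 115 for all 1546. Of the 23, 13 (56.5%) were among the 386 strongest 25% of peaks, against 238 of the 856 other promoter peaks (27.8%). The lowest, the median and the highest signal were 46.4, 117 and 332 in replicate 1, and 36.7, 75.2 and 283 in replicate 2. As a description, the signals of the replicates were related across the 23 peaks with Pearson's r = 0.87 on the log2 scale and Spearman's rho = 0.82, against a rho of 0.66 over the 1525 conservative peaks ranked in both replicates. All of these peaks were kept because they ranked alike in the replicates, and both replicates share the antibody and the strain. A rho also depends on the spread of signals in a set. The ribosomal protein peaks are stronger than the whole list, so the rho values do not show better replication at this family.

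All 23 summits lay upstream of the ribosomal protein gene. The median distance was 288 bp, with quartiles of 250 and 383 bp, against a median of 259 bp and quartiles of 126 and 540 bp for the 1091 pairs of a conservative peak and another bound gene. Of those other pairs, 78 (7.15%) had the summit downstream of the 5′ end. The nearest summit was at rpl-12, 18 bp upstream, followed by rpl-7A at 80 bp. The farthest were rpl-43 at 733 bp and the second rpl-15 peak at 784 bp. Another conservative summit was nearer to the rpl-43 5′ end, at 310 bp, but lay downstream of it and outside the promoter span. By annotation 20 summits lay outside genes, 1 lay in an intron of C03D6.1 (rpl-24.2) and 2 lay in non-coding genes (rps-1 and rpl-7). No conservative summit lay inside a ribosomal protein gene without also lying in a promoter of the family.

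An annotated 5′ end is not always a transcription start in worms, since many mRNAs receive a spliced leader at an acceptor site that resembles TTTCAG. That word stood directly before an annotated 5′ end in 43 of the 78 ribosomal protein genes (55.1%), against 3356 of all genes (16.8%). Bound members had it in 14 of 22 cases (63.6%), and unbound members in 29 of 56 (51.8%). Distances at such genes are to the annotated end and not to a measured start. The word was counted after the data had been seen.

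Many of these peaks stood between a ribosomal protein gene and a neighbour. Of the 23 peaks, 16 (69.6%, 49.1 to 84.4%) were also in the promoter of another protein-coding gene, against 207 of the 856 other promoter peaks (24.2%, 21.4 to 27.2%). The neighbours were 15 different genes, and 14 of the 16 pairings ran in opposite directions. They included lin-54, for the DNA-binding subunit of the DREAM complex, opposite rpl-12, and ifet-1, for a translational repressor that binds eIF4E, opposite rps-1. Opposite rpl-7 lies rab-11.1, for a GTPase of recycling endosomes. The same-strand cases were Y41D4B.4 with rps-28 and thoc-7 with rpl-29.

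In 8 pairings the summit was nearer to the neighbour's 5′ end than to that of the ribosomal protein gene. It was 163 bp from hsr-9, related to 53BP1, and 282 bp from rps-19. Likewise it was 139 bp from ekl-4 and 258 bp from rps-20, and 67 bp from tmem-107 and 390 bp from rps-26. The other cases were ska-3 with rps-12 (121 bp and 172 bp), dpm-3 with rps-23 (255 bp and 279 bp), Y17G9B.5 with rpl-20 (174 bp and 288 bp), Y48B6A.1 with rpl-43 (188 bp and 733 bp) and K11H12.8 with the second rpl-15 peak (30 bp and 784 bp). When each peak was given only to its nearest gene, 15 ribosomal protein genes remained bound (19.2%), against 3.94% of all genes. The 7 lost were rpl-20, rpl-43, rps-12, rps-19, rps-20, rps-23 and rps-26, so 4 of the 9 small subunit genes were left. Which gene of a pair a peak acts on cannot be told apart from these files.

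**Figure D3:**
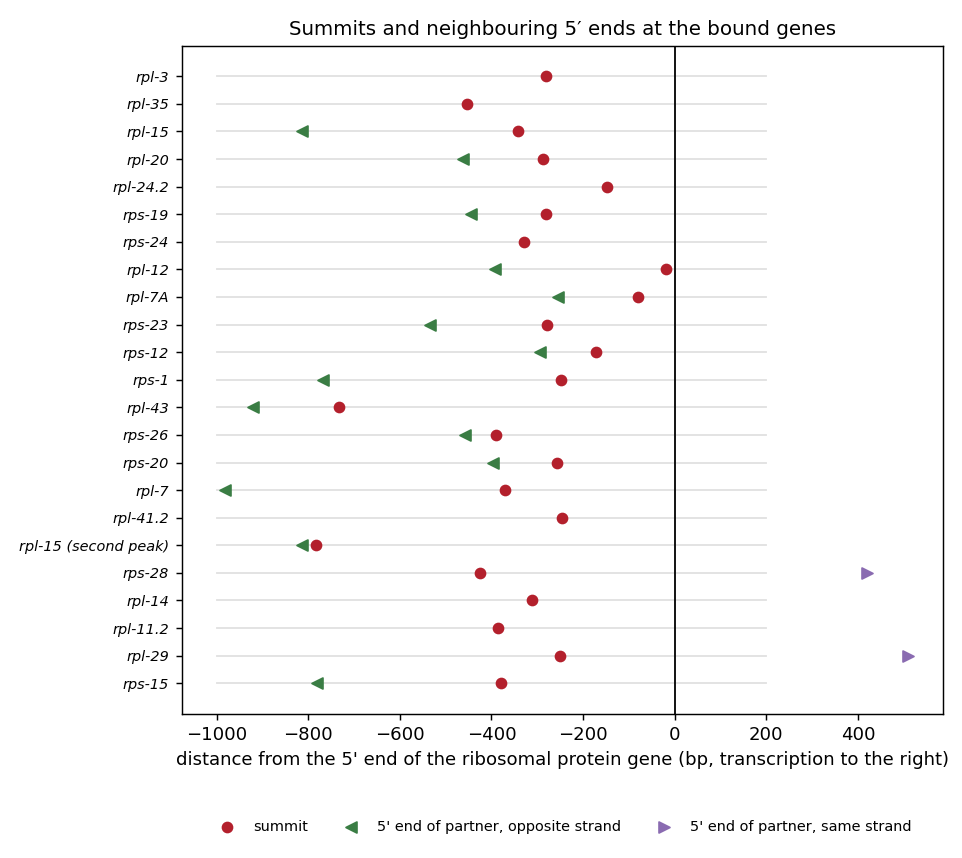
Position of each of the 23 summits (circles) relative to the 5′ end of its ribosomal protein gene (x axis, bp, negative upstream), with the 5′ end of the other gene whose promoter holds the summit (triangles, left-pointing for the opposite strand) and the promoter span (grey lines). All circles are upstream, and 14 of 16 triangles belong to genes on the opposite strand.

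Close divergent neighbours were a property of the family whether bound or not. A protein-coding 5′ end on the opposite strand within 1000 bp upstream was found at 13 of 22 bound members (59.1%) and 34 of 56 unbound members (60.7%), against 344 of 988 other bound genes (34.8%) and 3749 of all genes (18.8%). A gene with such a neighbour can be called through a peak of the neighbour, and the part of this arrangement in the family's share was not tested. Among the members themselves 3 divergent pairs were found, rpl-24.1 with rps-10 (5′ ends 610 bp apart), rpl-36 with rps-14 (663 bp) and rpl-39 with rps-30 (499 bp). None of these 6 genes was bound in the conservative list. The first and the last pair each shared a peak of the ranked series list, with signals of 81.6 and 80.2, and both pairs were called in the optimal and replicate 1 lists.

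Bound members were counted by chromosome beside the share of all protein-coding genes bound there. There were 8 of 23 members on I (all genes 6.67%), 1 of 10 on II (4.26%), 4 of 18 on III (7.08%), 8 of 17 on IV (4.36%), 0 of 8 on V (4.02%) and 1 of 2 on X (5.13%). With so few genes a chromosome, these are descriptions.

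The 56 unbound members were not all without signal. A ranked series peak lay in 43 promoters, with a median signal of 54.5 (21.7 to 87.3), and 13 promoters had none. The 5 highest of these values were at rps-13 (87.3), rpl-24.1 and rps-10, which share a peak (81.6), rpl-5 (81.1) and rpl-39 (80.2). For rps-13 the signals were 64.0 in replicate 1 and 27.1 in replicate 2, and for rpl-5, whose protein carries 5S ribosomal RNA to the ribosome, 61.5 and 21.0. All of these values were below the 93.5 of the weakest bound member, rps-15. The list is cut by IDR and not by signal, so a high signal does not mean that a member was near the limit. The −log10 of the global IDR was 0.20 at rpl-5 and 1.98 at rpl-2, whose signal was 70.9. The largest global IDR in the conservative list was 0.00998, so rpl-2, and rps-21 with the same 1.98, lay just beyond it. In all, 12 unbound members were called in another thresholded list. The optimal list alone held rpl-2, rps-3 and rps-21, replicate 1 alone held rpl-13, rpl-23 and rpl-32, and both held rpl-5, rpl-24.1, rpl-39, rps-10, rps-13 and rps-30. None of the 12 was in the replicate 2 list. The remaining 44 were in no thresholded list. For the 56, the nearest conservative summit was a median of 27556 bp from the gene's 5′ end (702 to 152192 bp).

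**Figure D4:**
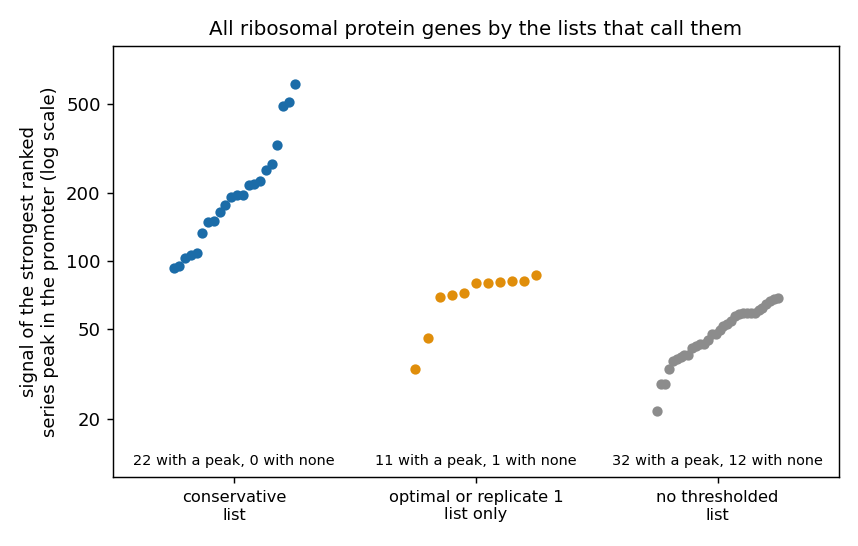
Signal of the strongest ranked series peak in the promoter (y axis, log scale) of each ribosomal protein gene, by whether the gene is called in the conservative list (left), in the optimal or replicate 1 list only (middle) or in no thresholded list (right). The 22 genes on the left range from 93.5 to 612, 11 of 12 in the middle from 33.4 to 87.3 and 32 of 44 on the right from 21.7 to 68.9, and 1 and 12 genes without a ranked peak are not drawn.

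Members with numbered copies were treated unequally in several cases. The proteins of rpl-11.1 and rpl-11.2 are 91.3% identical over 196 residues each. Their uL5 product contacts 5S ribosomal RNA. Of this pair rpl-11.2 on X was bound (103 in the series, 65.1 and 36.7 in the replicates), and rpl-11.1 on V was not (52.6, with 31.2 and 27.6). The encoded peptides of rpl-41.1 and rpl-41.2, of 22 residues, are identical. Here rpl-41.2 was bound (134, with 81.7 and 46.7) and rpl-41.1 was not (47.5, with 28.8 and 25.1). Both genes lie close together on I, on the same strand. The summit of the rpl-41.2 peak lay between them, 856 bp downstream of the rpl-41.1 5′ end. In both pairs the bound copy was higher in each replicate.

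The names rpl-24.1 and rpl-24.2 stand for more distant proteins of 159 and 162 residues, 27.2% identical. In yeast and mammals the relative of rpl-24.2 is an assembly factor of the large subunit that ribosomal protein eL24 replaces later. The bound gene was rpl-24.2 (271), while rpl-24.1 had 81.6. For rpl-25.1 and rpl-25.2, 70.1% identical, no series peak of any rank was found. Neither rpl-36 nor rpl-36.A was bound, and their identity of 21.0% is about as low as that of rpl-7 and rpl-7A. The genes rpl-7 and rpl-7A share a number but encode unrelated proteins (20.8% identity over the alignment), and both were bound.

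The word TTGCGAAA was at a smaller share of ribosomal protein peaks than of other peaks. The intervals overlap for the window of 100 bp, the only one for which they are given. Within 100 bp of the summit, on either strand, it was found at 3 of 23 peaks (13.0%, 4.54 to 32.1%), against 439 of the 1523 other conservative peaks (28.8%, 26.6 to 31.2%). Within 50 bp it was left at 1 of 23 (4.35%), the rpl-35 peak, against 390 of 1523 others (25.6%). The 3 peaks were those of rpl-35, rpl-24.2 and rpl-43, and the word stands in capitals in the rpl-35 and rpl-43 strands printed above. Among the strongest 25% of peaks it was at 3 of 13 ribosomal protein peaks (23.1%), against 228 of 373 others (61.1%). The median signal of peaks without the word was 180 for the 20 of this family and 102 for the 1084 others. At rpl-3 the peak was the fourth strongest of the 1104 conservative peaks that lack the word. In whole promoters TTGCGAAA stood at 4 of 22 bound members (18.2%, namely rpl-24.2, rpl-35, rpl-43 and rps-26) and at 4 of 56 unbound members (7.14%, namely rpl-13, rpl-37, rps-22 and rps-29), against 2402 of the 19973 promoters of all genes, of the same length.

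Other words of known factor families were counted in the same windows. The C/EBP palindrome TTGCGCAA and the related TTACGTAA and TTGCGTAA were at 0 of 23, against 1.05%, 0.197% and 0.788% of the other peaks. A count of 0 of 23 allows a share of up to 14.3% (Wilson). The C/EBP-ATF word TTGCATCA was at 1 of 23 peaks, against 1.77% of others, and the AP-1 word TGACTCA at 0, against 4.92%. The E-box CACGTG was at 2 (8.70%), against 8.21%, GAGAGA at 6 (26.1%), against 31.6%, and the GATA-type word TGATAA at 2 (8.70%), against 17.3%. The TATA-box word TATAAA was at 0 of 23 windows, against 15.8% of other peaks. Base composition differed little, with a median GC content of 44.3% (33.8 to 53.2%) in the windows of the family and 42.3% in the others. An absent word says only that its letters were not in the window.

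A search of all 8-base words, made after the data had been seen, listed those present in at least 5 of the 23 windows. Of 3499 words in the windows 19 reached that number, and they were ordered by the ratio of their share in these windows to that in the other 1523. The word at the top was GGCCTAAA, at 6 of 23 ribosomal protein peaks (26.1%), against 4 of 1523 others (0.263%). It was followed by TGGCCTAA, which overlaps it (5 peaks, against 0.460%), TACGGTAA (5 peaks, 21.7%, against 0.722%), ATTTTAGG (5 peaks, against 0.919%) and CGCTCCAC (5 peaks, against 1.51%). Since the words were chosen for being frequent in these windows, their counts there are a description and support nothing.

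The 6 windows with GGCCTAAA belong to rpl-3, rpl-15, rpl-7A, rps-28, rps-26 and rpl-43. In the first 5 it was read on the strand of the gene, 54 to 72 bp from the summit on the side of the gene, and preceded by T, as can be seen near the right end of the rpl-3, rpl-15, rpl-7A and rps-28 strands. At rpl-43 it was on the opposite strand, 30 bp from the summit. Its distance from the annotated 5′ end varied more, at 20 bp for rpl-7A, 214 bp for rpl-3, 284 bp for rpl-15 and 372 bp for rps-28. The 5 sites of TACGGTAA were centred 4 bp from the summit at rpl-3, 12 bp at rpl-20, 24 bp at rps-23, 32 bp at rps-1 and 40 bp at rpl-11.2. Those of CGCTCCAC were at 10 bp for rpl-15, 16 bp for rps-1, 28 bp for rps-15, 48 bp for rpl-12 and 54 bp for rpl-20. At rps-1 TACGGTAA, CGCTCCAC and ATTTTAGG were all within the printed strand, while the rps-24 strand has none of the words.

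Most of these words were also in promoters of the family that had no conservative peak. GGCCTAAA was in the promoter of 10 of 22 bound members (45.5%) and 16 of 56 unbound members (28.6%), against 4.30% of all genes. For TACGGTAA the shares were 22.7% of bound and 17.9% of unbound members, against 4.86% of all genes, and for ATTTTAGG 45.5% and 35.7%, against 2217 of all 19973 genes. These words were thus not limited to the called promoters. CGCTCCAC had another pattern, at 5 of 22 bound members (22.7%) and 2 of 56 unbound members (3.57%), against 2.91% of all genes. Its bound carriers were rpl-12, rpl-15, rpl-20, rps-1 and rps-15, the same 5 genes whose peaks led to its choice. The same holds for the 5 bound carriers of TACGGTAA, and those of GGCCTAAA and ATTTTAGG include such genes. The bound shares of all these words were thus partly set by how the words were chosen.

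Other genes of protein synthesis were set beside the family. Of 6 further parts of the cytosolic ribosome, 0 were bound, which allows a share of up to 39.0% (Wilson). Among them the ubiquitin fusion genes ubq-2 and ubl-1, which encode ribosomal proteins as fusions, had ranked peaks of 74.7 and 56.5. The stalk genes rla-1 and rla-0 had 36.4 and 28.6, while rla-2 and the scaffold gene rack-1 had no ranked series peak. Mitochondrial ribosomal protein genes were bound in 2 of 70 cases (2.86%, 0.787 to 9.83%), at mrps-7 (310) and mrpl-15 (116). This interval lies below that of the cytosolic family and includes the 5.06% of all genes.

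Translation factor genes were bound in 10 of 39 cases (25.6%, 14.6 to 41.1%), a share whose interval overlaps that of the ribosomal protein genes. Their strongest was eef-1A.2, for elongation factor 1A, with 1189, above every ribosomal protein peak. It was followed by iff-2 (252), for the eIF5A factor, eef-1A.1 (239) and eif-2beta (141). In the replicates this list had 16 genes bound in replicate 1 and 4 in replicate 2. Of 44 names of ribosome biogenesis and RNA polymerase I genes 38 matched the annotation, and 3 of these were bound (7.89%, 2.72 to 20.8%), an interval that includes the 5.06% of all genes. They were rpac-19 (102), fib-1 (96.6) and nol-58 (85.2), and the count was 0 in replicate 2 and at an IDR of at most 0.001. The lists were drawn up with earlier results of these data known and are compared by counts only.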

How the data were processed

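ChIP-seq peaks of GFP-tagged CEBP-1 were compared over 2 replicates and their series lists. Per the deposited notes, the authors called peaks on ce11 against a control alignment and ranked them by IDR. The caller, its version and settings: not given in the sources used here. The deposited score is a whole number, at least 830 in every thresholded list. The deposited signal value has no stated scaling, so its size was compared within lists only. The deposited −log10 of the global IDR gave the stricter selection (at most 0.001). Files with read counts were not used here, so depth is unknown. For a replicate's signal at a peak, its own ranked list was searched for an overlapping peak.

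Genes, exons and sequences came from the WBcel235 assembly and Ensembl release 115. Promoters spanned 1000 bp upstream to 200 bp downstream of any 5′ end. Words were counted on both strands within 100 bp of the summit, or in the whole promoter. Protein identity came from pairwise alignment of translated coding sequences. No test was run, because there is 1 group, and shares carry 95% Wilson intervals. Members and lists were chosen with earlier results of these data known. Named genes are all bound members, the 5 strongest unbound members, those whose calls differ between lists, numbered copies, all 6 further ribosome parts, up to 4 strongest bound genes of each other list, and genes sharing a peak with a bound member. Alternatives varied the list, IDR limit, promoter, assignment and window. Biopython 1.88, matplotlib 3.10.9, scipy 1.17.1, pandas 2.3.3 and numpy 2.4.6 ran under Python 3.11.15, and the procedures were tested on simulated data.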

Additional observations from a re-analysis of the deposited data

How the results depend on the processing

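Of 104 recomputed values, 73 stayed within their margin (1.5 times for a count, the SD between the replicates' own lists for a median, the Wilson interval for a share) and 31 moved. Among the 31 were 9 values of the share of all protein-coding genes bound, which is the background and not a result of the family. The margin for a median rests on 2 values, and a median distance of 282 bp in place of 288 bp counted as moved. The number of bound members was 31 in the optimal list, 17 at an IDR of at most 0.001 (against 3.11% of all genes), 18 and 29 in the replicates alone, 21 with promoters of 500 bp upstream and 100 bp downstream (all genes 3.72%), 25 with 2000 bp upstream (6.65%), 15 with nearest genes only (3.94%) and 22 for any overlapping base (5.40%). The small subunit count of 9 became 14 in the optimal list and 4 with nearest genes only. The median signal of 193 became 150 in the optimal list and 207 at the stricter IDR. It was 78.6 to 98.4 in the replicates' own lists, which counted as moved although those lists are not on the scale of the series list. The median distance of 288 bp became 300, 281, 282, 320 and 312 bp with the optimal list, the stricter IDR, the short promoter, the long promoter and nearest genes only, and was 297 to 302 bp in the replicates alone. The TTGCGAAA share fell to 4.35% within 50 bp. Translation factors counted 4 to 16 in single replicates. Biogenesis genes counted 0 at the stricter IDR, 0 to 3 in single replicates and 5 with the long promoter. Mitochondrial genes counted 1 with the short promoter, 5 with the long one and 4 for any overlapping base. Reasons for these shifts were not tested. The settings themselves change list length and promoter span. No paired analysis was possible because there is 1 group and no test. With 2 replicates, unknown depth and no control sample examined here, the values describe these lists, and a member without a call is not shown to be free of CEBP-1.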
